A study of Danio rerio with 12 samples.

Results

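Cells sorted by an endothelial GFP reporter from zebrafish embryos injected with miR-126 MO-2 were compared with those of control embryos. The comparison used 8 of the 12 arrays of the series. The 8 arrays are all those whose titles name miR-126 MO-2 or control, 4 in each group, and the arrays of the other oligonucleotide, MO-1, were not used. MO-2 is a morpholino, a stable antisense oligonucleotide, directed against processing of the miR-126 precursor, and 4 ng of it was injected at the one-cell stage. Control replicate 1 is labelled uninjected, while for control replicates 2, 3 and 4 no injection is mentioned. No control oligonucleotide is named, so loss of miR-126 and injection of an oligonucleotide cannot be told apart in these data. All embryos of both groups carried flk1:GFP, in which the promoter of flk1, a receptor gene for vascular endothelial growth factor (VEGF), drives GFP, and cells with GFP were flow-sorted 48 hours after fertilization. Genes of blood, epidermis and muscle also had signals on these arrays, and the share of endothelial cells in the sorts was not tested. The samples are described as biological replicates, and how many embryos went into each is not stated. Their RNA, amplified with the NuGen WT-Ovation Pico system, was read on Affymetrix zebrafish arrays of 1 colour, which report a log2 signal per probe set.

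miR-126 is a microRNA of endothelial cells that is made from an intron of egfl7, a gene for a secreted endothelial protein. MicroRNAs pair with messenger RNAs, mostly in the 3′ untranslated region, and lower their stability or translation. In zebrafish and mouse embryos miR-126 is known for its part in vessel integrity and angiogenesis, through repression of spred1, an inhibitor of Ras and ERK signalling, and of a regulatory subunit of phosphatidylinositol 3-kinase, both of which restrain the response to VEGF. The comparison asks which messenger RNAs of the sorted cells differ after injection of MO-2. No probe set was named egfl7, pik3r2 or miR-126, so the effect of MO-2 on mature miR-126 was not analysed here.

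Arrays of both groups that carry the same replicate number resembled each other. Deviations from the group means correlated at 0.375, 0.576, 0.223 and 0.505 across probe sets for numbers 1 to 4, against a median of -0.186 for the 12 combinations of different numbers. For 8 of 8 arrays the best partner in the other group had the same number. Centring on group means pushes values for different numbers below 0 where same-numbered ones lie above 0, so the contrast is partly built in. Comparing MO-2 with control within same-numbered pairs was set by plan and not by this check. The 4 pairs did not show one pattern. Correlations of the differences were taken across probe sets, which are not independent of each other. Pair 1 correlated with pair 2 at 0.478 and pair 2 with pair 3 at 0.268, but pair 1 with pair 3 at only 0.043. Pair 4 correlated with pairs 1, 2 and 3 at -0.146, -0.053 and -0.097.

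The arrays numbered 4 stood apart in both groups in some measures. The endothelial score, the mean over 13 measured marker genes with the 8-array mean of each gene subtracted, was 0.58, 0.42, 0.40 and -0.92 in MO-2 replicates 1 to 4, against 0.13, 0.10, -0.06 and -0.66 in control replicates 1 to 4. The excess of 3′ over 5′ signal of the acta1 control probe sets was 3.70 log2 in MO-2 replicate 4 and 3.88 in control replicate 4, against 2.64 to 3.38 in the other arrays. For the GAPDH control probe sets the excess was 2.09 in MO-2 replicate 4 and 1.76 in control replicate 4, against 0.78 to 1.82 in the other arrays. By GAPDH, control replicate 4 thus did not stand apart. A control probe set for EGFP had log2 signals of 6.30, 6.44, 6.63 and 5.86 in MO-2 samples and 6.27, 6.33, 6.23 and 6.14 in control samples, lowest with number 4 in each group. All of these EGFP values lay below the array medians of 6.80 to 6.85. Control replicate 3 had the lowest skeletal muscle score of the 8 arrays, -1.52, against -0.43 to 0.98 in the other 7. Results are given with and without pair 4, or pair 3 for muscle, where either carries them.

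No probe set passed the test. limma, with the pair as a block, called 0 of 15502 probe sets at an adjusted p under 0.05 (0% in each direction), and the smallest adjusted p was 0.145. At an unadjusted p under 0.05 there were 613 probe sets with a higher mean in MO-2 samples (3.95%) and 462 with a lower mean (2.98%). The median SE of a difference was 0.15 log2 and the median half-width of its 95% interval 0.33. An exact sign-flip test over 4 pairs cannot give a two-sided p below 0.125, so no gene was tested in that way. Every difference below is MO-2 minus control on the log2 scale and none passed; the values are given as measurements, and signals are not compared between genes.

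Among the 8793 genes with a probe set, 671 were higher in MO-2 samples in 4 of 4 pairs (7.63%) and 624 were lower in 4 of 4 (7.1%). In 93 genes all 4 MO-2 values lay above all 4 control values (1.06%), and in 83 they lay below (0.944%). The difference was above 0 for 53.3% of genes and had a median of 0.01, and the central 90% of genes ran from -0.30 to 0.36. These shares are the background against which the gene groups below are set. Of the 100 probe sets with the smallest p, 69 were higher in MO-2 samples and 31 lower.

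**Figure D1:**
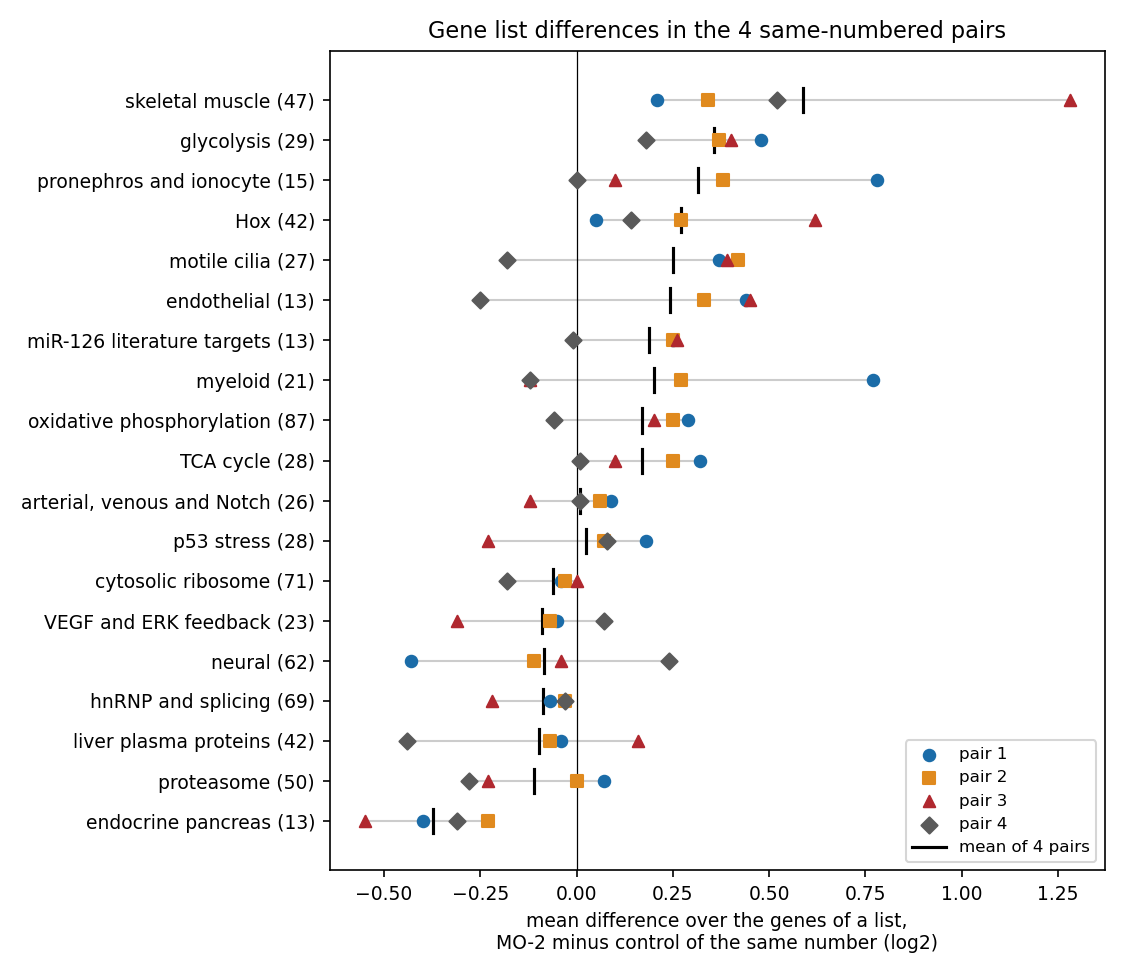
Mean log2 difference, MO-2 minus control, over the measured genes of 19 lists in each same-numbered pair, with the number of genes in parentheses and a bar at the mean of the 4 pairs. The skeletal muscle difference is 1.28 in pair 3 and 0.21 to 0.52 in the others, the endothelial difference is -0.25 in pair 4 and 0.33 to 0.45 in the others, and the endocrine pancreas difference lies between -0.55 and -0.23 in the 4 pairs.

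Among islet hormone genes, ins, sst1.1, gcga and sst2 had lower signals in MO-2 samples, and ins had the largest difference below control among the named genes. The insulin gene ins had log2 signals of 8.97, 10.04, 8.83 and 8.86 in MO-2 replicates 1 to 4, against 10.19, 11.09, 10.84 and 10.56 in control replicates 1 to 4. Each MO-2 value lay below each control value. The difference was -1.50 (SE 0.17, 95% interval -1.89 to -1.10), a signal 2.82-fold lower in MO-2 samples, with the smallest adjusted p of the fit, 0.145. The somatostatin gene sst1.1, which encodes a hormone that restrains release of insulin and glucagon, had 5.25, 5.74, 4.93 and 5.20 in MO-2 samples, against 6.15, 6.21, 6.89 and 6.22 in control samples. The groups of sst1.1 did not overlap either, with a difference of -1.09 (SE 0.22, adjusted p = 0.274). The glucagon gene gcga, of islet alpha cells, had 9.77, 10.21, 9.34 and 9.79 in MO-2 samples, against 10.27, 10.46, 10.60 and 10.89 in control samples. Its groups were also separate, at a difference of -0.78 (SE 0.18, adjusted p = 0.359). A further somatostatin gene, sst2, varied more between pairs than between groups, with 6.35, 9.57, 6.64 and 8.69 in MO-2 samples and 7.60, 9.59, 8.05 and 9.19 in control samples, a difference of -0.80 (SE 0.22).

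These 4 hormone genes, grouped after the values were seen, were lower in MO-2 samples in 4 of 4 pairs. Their mean differences by pair were -0.97, -0.45, -1.66 and -1.08. The remaining genes of the endocrine list did not share this size. Of its 13 measured genes 11 were lower, 4 of them in 4 of 4 pairs, and the median difference was -0.23, at the secretory granule gene scg5. The transcription factor gene neurod1, active in islet cells and in neurons, had a difference of -0.56 (SE 0.29) and was lower in 3 of 4 pairs. The islet transcription factor genes pdx1 and isl1a had differences of -0.03 (SE 0.17) and 0.27 (SE 0.13). The second insulin gene insb and sst6.1, named as a somatostatin gene, had -0.04 (SE 0.18) and -0.01 (SE 0.15). The median of the list was -0.17, -0.25, -0.19 and -0.36 without pairs 1, 2, 3 and 4 in turn. These are values of bulk RNA of a sort for GFP, in which fewer islet cells and less hormone RNA per cell cannot be told apart, here and for each cell type below.

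**Figure D2:**
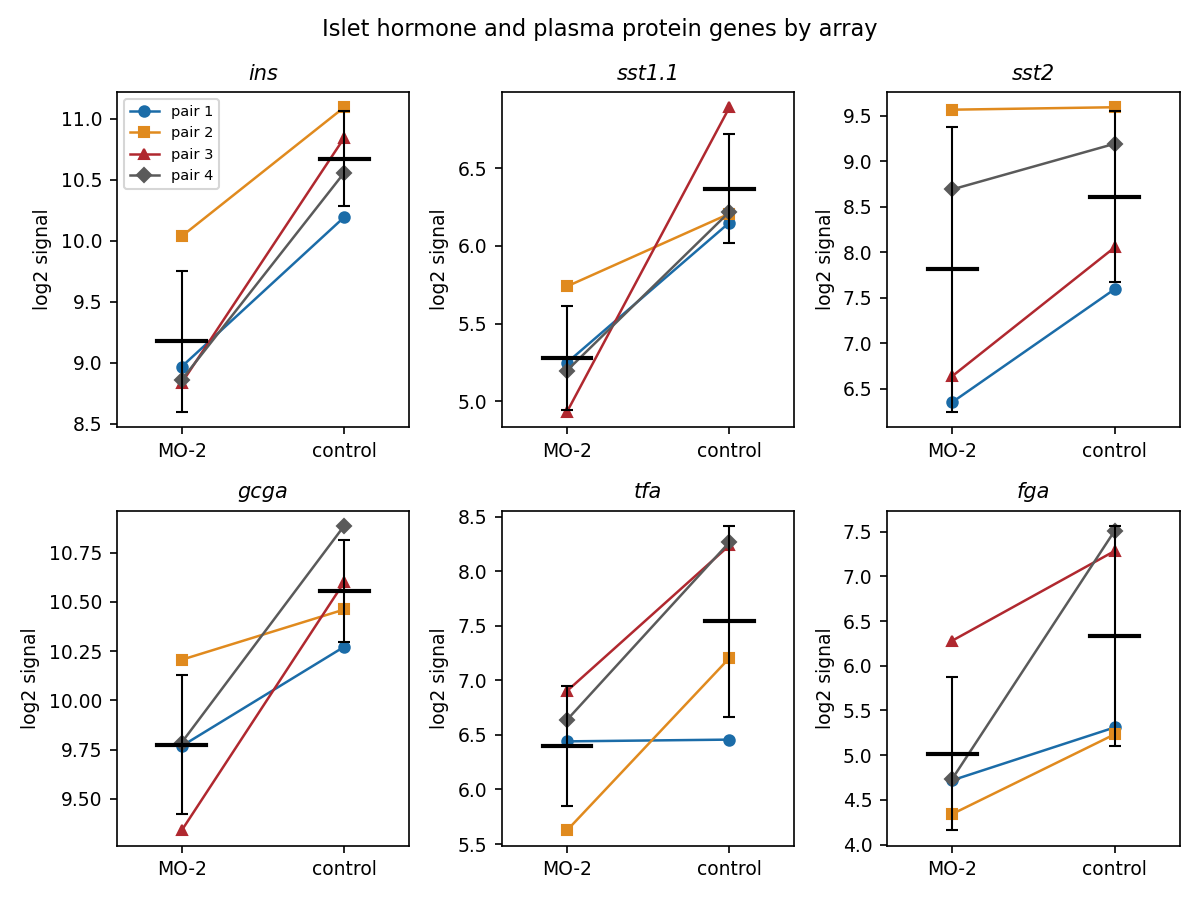
Log2 signal of 4 islet hormone genes and 2 plasma protein genes in MO-2 samples (left) and control samples (right), with lines joining arrays of the same number and bars at the group mean ± SD (n = 4 each). For ins, sst1.1 and gcga each MO-2 value lies below each control value, and for fga the widest gap between same-numbered arrays is that of pair 4.

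Of the genes of plasma proteins secreted by the liver, fga, tfa and fgb had the largest differences. The fibrinogen alpha chain gene fga had 4.72, 4.34, 6.28 and 4.73 in MO-2 samples, against 5.31, 5.23, 7.28 and 7.51 in control samples. It was lower in 4 of 4 pairs, with a difference of -1.32 (SE 0.31, adjusted p = 0.354), though the groups overlapped and pair 4 alone was at -2.78. The beta and gamma chain genes fgb and fgg had -0.52 (SE 0.20) and -0.44 (SE 0.21), each lower in 3 of 4 pairs, and the 3 chains together had mean differences by pair of -0.22, -0.40, -0.83 and -1.58. The gene tfa, for the iron carrier transferrin, had 6.44, 5.62, 6.90 and 6.64 in MO-2 samples, against 6.46, 7.20, 8.24 and 8.27 in control samples. Pair 1 showed almost no gap in tfa while the other 3 did, and the difference was -1.14 (SE 0.25, adjusted p = 0.341). The apolipoprotein genes apoeb and apoa2 both had -0.45 (SE 0.18 and 0.16). Over the whole liver list 19 of 42 genes were higher and 23 lower with a median of -0.01, and rbp4, for a retinol carrier, was at 0.48 (SE 0.25). Without pair 1 the liver median was 0.02, without pair 4 it was 0.11 with 28 of 42 higher, and without pair 3 it was -0.12 with 8 of 42 higher.

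Genes of skeletal muscle had higher signals in MO-2 samples, most of all in pair 3. Of 47 measured genes 44 had a higher mean, and 21 were higher in 4 of 4 pairs (44.7%, against 7.63% of all genes). The median difference was 0.60. Their mean differences were 0.21, 0.34, 1.28 and 0.52 in pairs 1 to 4, so that pair 3 gave 54.5% of the sum. Without pair 3 the median was 0.38 and 40 of 47 were higher, 21 of them in 3 of 3 pairs (44.7% again, where 15.3% of all genes were). The muscle score was -0.22, 0.65, -0.24 and 0.98 in MO-2 samples, against -0.43, 0.31, -1.52 and 0.46 in control samples, so that the groups overlapped and the arrays of numbers 2 and 4 were high in both.

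A set of muscle and heat shock genes was among the 15 higher genes with the smallest p, and only actn3b and hsp90aa1.1 of them are in the muscle list. The gene tmem38a, for a potassium channel of the sarcoplasmic reticulum, had 6.66, 8.28, 6.67 and 8.74 in MO-2 samples, against 5.82, 7.27, 5.37 and 7.80 in control samples, a difference of 1.02 (SE 0.14, adjusted p = 0.179). The groups of tmem38a overlapped, with numbers 2 and 4 high in both, while every pair differed by 0.84 or more. The gene actn3b, for an alpha-actinin of the Z disc, had 7.69, 8.92, 7.56 and 9.49 in MO-2 samples, against 6.78, 7.93, 5.79 and 8.53 in control samples, a difference of 1.16 (SE 0.17, adjusted p = 0.193), with a gap of 1.77 in pair 3 and 0.99 or less in the others. The gene hsp90aa1.1, for the chaperone that folds myosin in zebrafish muscle, had 7.41, 8.47, 7.31 and 9.04 in MO-2 samples, against 6.89, 7.60, 6.03 and 8.04 in control samples, a difference of 0.92 (SE 0.15, adjusted p = 0.252). The small heat shock protein gene hspb8, whose product maintains the Z disc in mammals, was at 0.81 (SE 0.13), and the parvalbumin gene pvalb7, for a calcium buffer, at 0.78 (SE 0.14). All 5 were higher in 4 of 4 pairs.

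The structural genes with the largest mean differences had their widest gap in pair 3. The slow myosin heavy chain gene smyhc1 had 12.56, 13.38, 13.07 and 13.09 in MO-2 samples, against 11.42, 12.95, 9.86 and 13.03 in control samples. Control replicate 3 alone lay below 11, and the difference of 1.21 had an SE of 0.42 (adjusted p = 0.575). The intermediate filament gene desma had 9.83, 10.93, 9.58 and 10.49 in MO-2 samples, against 9.004, 10.02, 7.38 and 9.79 in control samples, a difference of 1.16 (SE 0.23, adjusted p = 0.274). The muscle phosphoglycerate mutase gene pgam2 and the parvalbumin gene pvalb4 were at 1.17 (SE 0.30) and 1.21 (SE 0.44). Without pair 3 the differences of smyhc1, pgam2 and pvalb4 were 0.54, 0.71 and 0.52. Also outside the list, the genes for myosin-binding protein C (mybpc3), nexilin (nexn) and a nucleoside diphosphate kinase (nme2b.2) were at 1.31 (SE 0.44), 1.09 (SE 0.30) and 1.12 (SE 0.30). Their gaps in pair 3 were 3.50, 2.53 and 2.39, and without pair 3 they were at 0.58, 0.61 and 0.70. In pair 4 mybpc3 and nme2b.2 differed by 0.08 and 0.05. The regulator of muscle precursors myf5, which stood at the list's median, had low signals of 3.25, 3.94, 3.40 and 4.40 in MO-2 samples, against 3.08, 3.13, 2.88 and 3.52 in control samples. Cardiac genes, with 2 members shared with muscle among the 4 largest differences (actc1a at 1.12, SE 0.35, and ttn.2 at 0.83, SE 0.38), had 12 of 13 higher, a median of 0.17 and mean differences of 0.10, 0.60, 0.74 and -0.32 in pairs 1 to 4, and the cardiac median was 0.02 without pair 2, 0.08 without pair 3 and 0.40 without pair 4. The part of muscle cells in the sort was not tested.

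**Figure D3:**
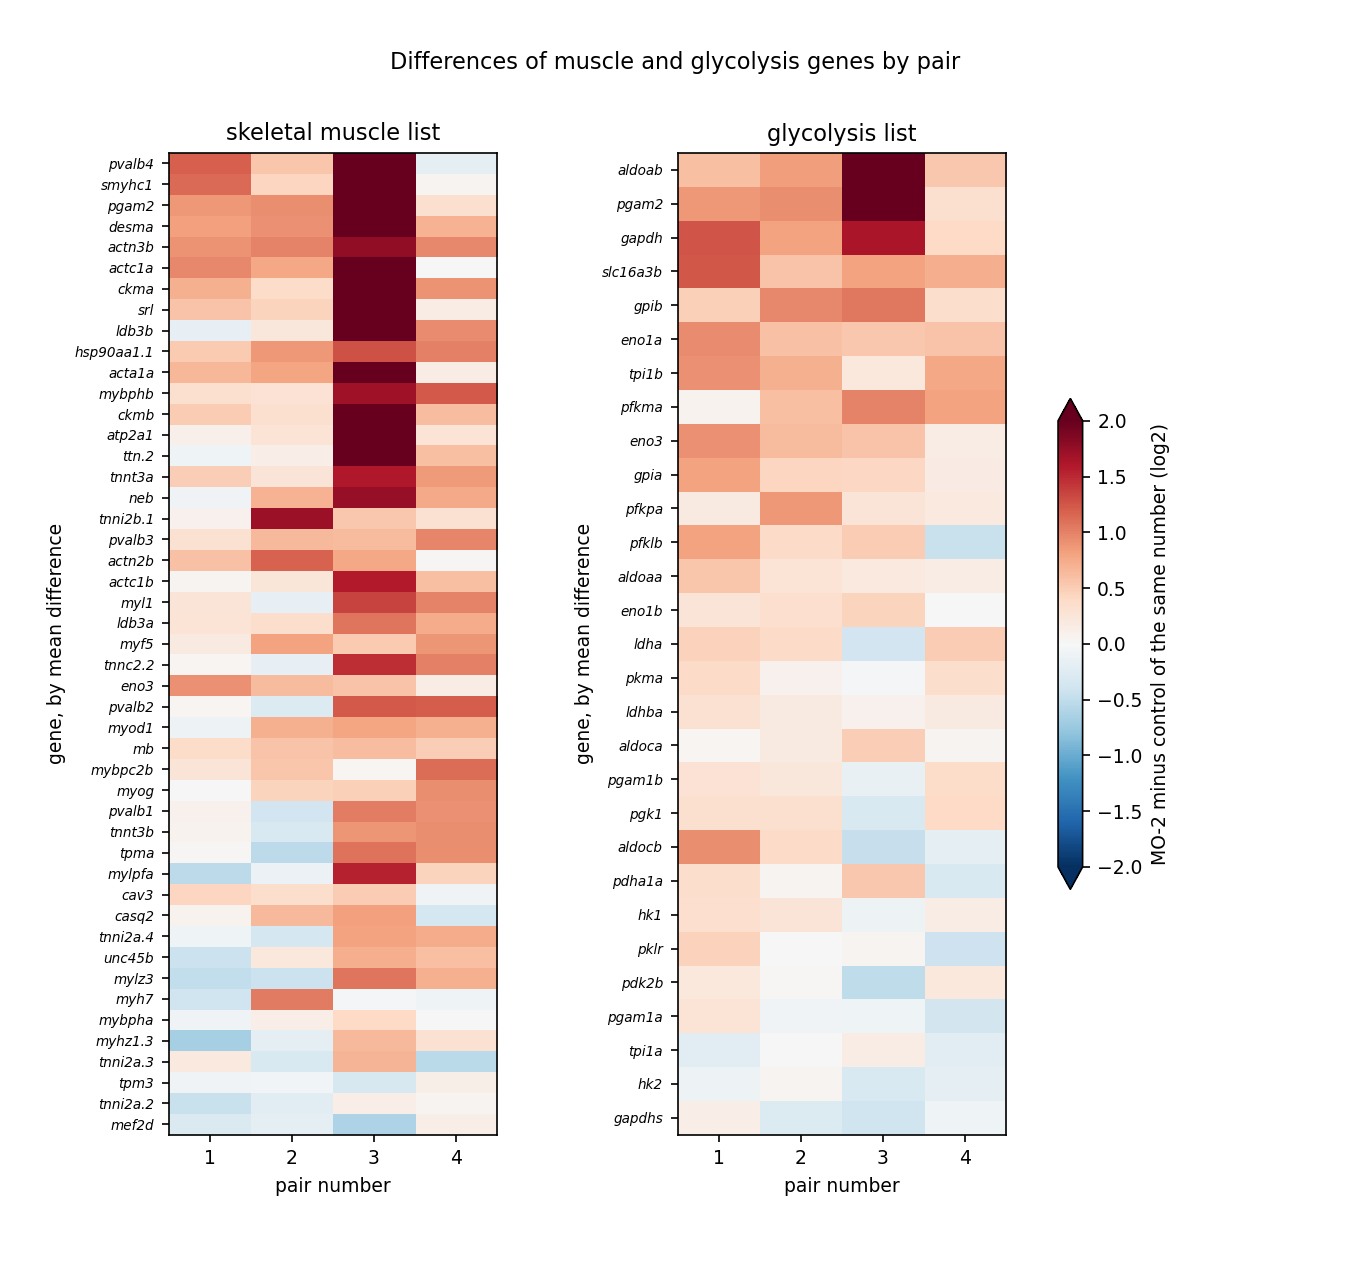
Log2 difference, MO-2 minus control, of each measured gene of the skeletal muscle list (47 genes) and the glycolysis list (29 genes) in pairs 1 to 4, with colours saturating at 2 and -2. Muscle genes are darkest in pair 3, while the upper glycolysis genes are above 0 in all 4 pairs.

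Genes of glycolysis, the breakdown of glucose to pyruvate, were higher in MO-2 samples with a more even share of the pairs. Of 29 measured genes 24 had a higher mean and 14 were higher in 4 of 4 pairs (48.3%), and the median difference was 0.24. The mean differences were 0.48, 0.37, 0.40 and 0.18 in pairs 1 to 4. Of the 27 genes that are not in the muscle list, 22 were higher, 12 of them in 4 of 4 pairs, with a median of 0.20. Only members of that list were left out, so other genes active in muscle may remain. The aldolase gene aldoab, among the 27, had its widest gap in pair 3, at 2.80. The glycolysis score of an array was 0.05, 0.39, -0.03 and 0.31 in MO-2 samples, against -0.44, 0.02, -0.43 and 0.13 in control samples, which are the same arrays, numbers 2 and 4, that were high for muscle. How far the glycolysis values follow the muscle values was not tested.

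The enzyme genes differed along the pathway. The gene gapdh, for glyceraldehyde-3-phosphate dehydrogenase, had 10.38, 11.75, 10.25 and 11.44 in MO-2 samples, against 9.12, 10.95, 8.62 and 11.04 in control samples, a difference of 1.02 (SE 0.20, adjusted p = 0.274). The enolase gene eno1a had 10.67, 10.55, 10.23 and 10.63 in MO-2 samples, against 9.72, 9.96, 9.68 and 10.05 in control samples. The 4 MO-2 values of eno1a all lay above the control values, and the difference was 0.66 (SE 0.14). The aldolase gene aldoab had 9.36, 11.52, 10.29 and 11.04 in MO-2 samples, against 8.76, 10.69, 7.49 and 10.49 in control samples, a difference of 1.19 (SE 0.33, adjusted p = 0.449) that was 0.66 without pair 3. The lactate exporter gene slc16a3b was at 0.84 (SE 0.15), the phosphoglucose isomerase gene gpib at 0.71 (SE 0.16) and the triose phosphate isomerase gene tpi1b at 0.65 (SE 0.15), and lactate dehydrogenase ldha stood at the list's median with 0.24 (SE 0.17). The 5 genes with a lower mean were gapdhs at -0.16 (SE 0.14), hk2 at -0.13 (SE 0.13), tpi1a at -0.07 (SE 0.13), pgam1a at -0.07 (SE 0.14) and pdk2b at -0.02 (SE 0.16). Hypoxia genes, which include inducers of glycolysis, had 12 of 18 higher and a median of 0.07, or 0.04 without pair 1 or 2 and 0.13 without pair 3. The prolyl hydroxylase gene egln3, itself induced by hypoxia, was at 0.49 (SE 0.17), and hif1al2, named for its likeness to the hypoxia-inducible factor, at -0.52 (SE 0.14).

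Mitochondrial energy genes were higher by small amounts in pairs 1, 2 and 3. Of 87 genes of oxidative phosphorylation 78 had a higher mean in MO-2 samples, 22 of them in 4 of 4 pairs (25.3%), with a median of 0.17 and mean differences of 0.29, 0.25, 0.20 and -0.06 in pairs 1 to 4. Genes were assigned to the complexes by name, so that genes for assembly factors are counted too. All 39 genes so assigned to complex I and all 8 to complex III had a mean above control, both with a median of 0.19. Means were also above control for 16 of 18 genes of ATP synthase, 10 of 14 of complex IV and 5 of 7 of complex II. The complex I gene ndufv2 was at 0.49 (SE 0.16), as was ndufa4b (SE 0.17), whose mammalian relative encodes a subunit of complex IV. The ATP synthase gene atp5md was at 0.42 (SE 0.15). Without pair 4 the median was 0.24, with 81 of 87 higher and 61 higher in 3 of 3 pairs, where 20.3% of all genes were. Without pair 1, 2 or 3 the median was 0.13, 0.15 or 0.17.

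The tricarboxylic acid cycle, which feeds the respiratory chain, had 22 of 28 genes higher, 11 of them in 4 of 4 pairs (39.3%), and a median of 0.17 at citrate synthase cs. Mean differences of this list were 0.32, 0.25, 0.10 and 0.01 in pairs 1 to 4. The succinyl-CoA ligase genes sucla2 and suclg1 were at 0.47 (SE 0.13) and 0.41 (SE 0.14), and pdhb, for a subunit of pyruvate dehydrogenase, was at 0.41 (SE 0.14), each higher in 4 of 4 pairs. The gene mdh1ab was at 0.42 (SE 0.27), higher in 3 of 4 pairs and at -0.86 in pair 4. The signal of sucla2 was 9.33, 9.69, 9.33 and 9.88 in MO-2 samples, against 8.71, 9.26, 8.91 and 9.47 in control samples. Its groups overlapped, with similar gaps in each pair. The aspartate aminotransferase gene got1, of the shuttle that carries reducing equivalents into mitochondria, was among the 15 higher genes with the smallest p, at 0.78 (SE 0.16). Genes of the mitochondrial ribosome had 42 of 59 higher and a median of 0.06, or 0.03 without pair 1, 0.01 without pair 2 and 0.15 without pair 4.

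Hox genes, the transcription factors that set position along the body axis, were higher in MO-2 samples. Of 42 measured genes 39 had a higher mean and 18 were higher in 4 of 4 pairs (42.9%). In 4 of the 42 genes all MO-2 values lay above all control values, where 1.06% of all genes did so. The median difference was 0.27. The mean differences were 0.05, 0.27, 0.62 and 0.14 in pairs 1 to 4. Without pair 3 the median was 0.14 with 33 of 42 higher, and without pair 4 it was 0.32 with 39 of 42 higher. The score was 0.11, 0.31, 0.26 and -0.14 in MO-2 samples, against 0.06, 0.04, -0.36 and -0.28 in control samples.

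The gene hoxb9a had 7.42, 7.52, 7.14 and 7.0 in MO-2 samples, against 7.05, 6.43, 5.76 and 6.12 in control samples. Only MO-2 replicate 4 lay inside the control range, and the difference was 0.93 (SE 0.17, adjusted p = 0.274). The gene hoxb8a had 8.63, 8.74, 8.66 and 8.16 in MO-2 samples, against 8.16, 7.68, 8.03 and 8.13 in control samples, a difference of 0.55 (SE 0.17). Its MO-2 values lay above its control values, by little in pair 4. The genes hoxc6b and hoxc11a were at 0.55 (SE 0.17) and 0.49 (SE 0.15), each higher in 4 of 4 pairs, and hoxc3a stood at the median with 0.27 (SE 0.15). Grouped by paralogue number, a split made after the values were seen, 10 of 13 genes of groups 1 to 4, which act in the hindbrain and neck, were higher with a median of 0.10. All 12 genes of groups 5 to 8 were higher with a median of 0.28, and all 17 of groups 9 to 13, which act in the trunk and tail, with a median of 0.35. Groups 1 to 4, with mean differences of -0.07, 0.12, 0.44 and 0.06 in pairs 1 to 4, were below both other groups in 4 of 4 pairs. The order of groups 9 to 13 above groups 5 to 8 rests on pair 3. Mean differences in pairs 1 to 4 were 0.09, 0.33, 0.80 and 0.13 for groups 9 to 13 and 0.14, 0.35, 0.56 and 0.24 for groups 5 to 8, so groups 9 to 13 were the higher ones in pair 3 alone. The 3 genes below control were hoxb3a at -0.22, hoxd3a at -0.19 and hoxb2a at -0.13. Members of a cluster lie side by side in the genome, and cross-hybridization between paralogues was not tested.

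**Figure D4:**
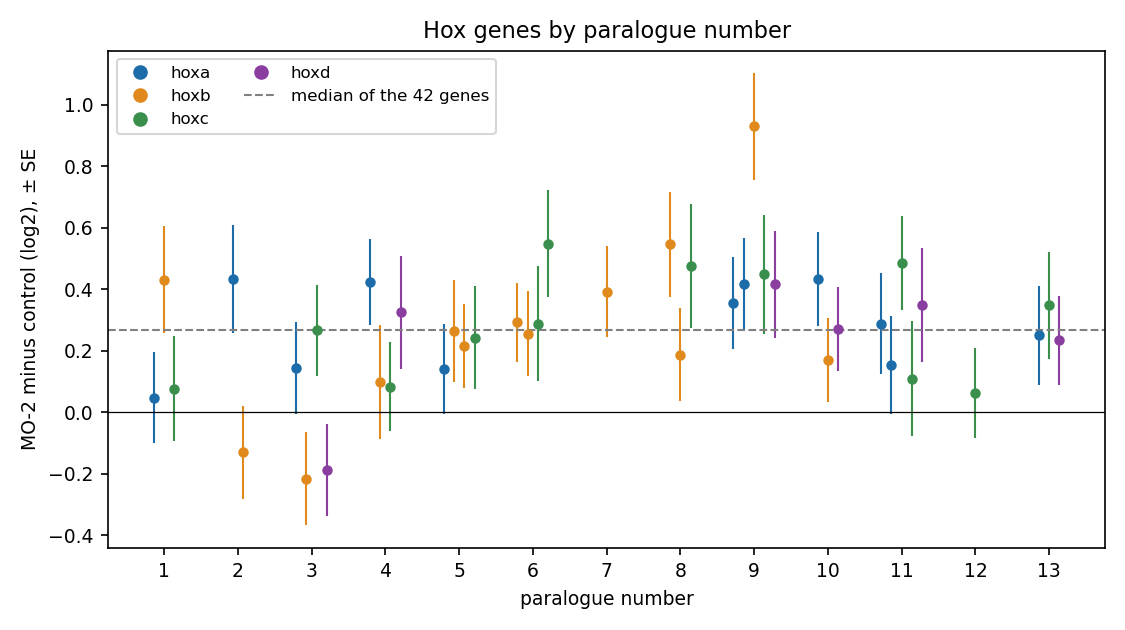
Log2 difference, MO-2 minus control, of 42 Hox genes by paralogue number, with bars of ± SE from the paired fit (4 pairs), colours for the gene families hoxa to hoxd and a dashed line at the median of 0.27. The 3 genes below 0 have paralogue numbers 2 and 3, and hoxb9a is highest at 0.93.

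Endothelial genes were higher in MO-2 samples in pairs 1, 2 and 3 and lower in pair 4. Of 13 measured genes 11 had a higher mean, 1 of them in 4 of 4 pairs (7.69%, against 7.63% of all genes), with a median of 0.28. The mean differences were 0.44, 0.33, 0.45 and -0.25 in pairs 1 to 4. Without pair 4 the median was 0.48, and 10 of 13 were higher in 3 of 3 pairs, where 20.3% of all genes were. Without pair 1 the median was 0.15. The VEGF receptor gene kdrl, the flk1 of the transgene, had 8.51, 7.88, 8.08 and 5.88 in MO-2 samples, against 7.64, 7.46, 7.57 and 6.36 in control samples. The value of MO-2 replicate 4 was the lowest of the 8, and the difference was 0.33 (SE 0.20, adjusted p = 0.832). The Src family kinase gene yrk had 9.32, 9.05, 9.01 and 7.70 in MO-2 samples, against 8.67, 8.66, 8.56 and 7.29 in control samples, and was higher in 4 of 4 pairs at 0.47 (SE 0.13, adjusted p = 0.444).

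Some other genes of the endothelial surface and its transcription factors followed kdrl, and others did not. The gene plvapb, for a component of fenestral and caveolar diaphragms, had 9.32, 9.55, 9.68 and 7.12 in MO-2 samples, against 8.85, 9.04, 8.65 and 7.28 in control samples, a difference of 0.46 (SE 0.18, adjusted p = 0.665). The ETS transcription factor gene erg had 9.04, 9.33, 9.10 and 7.51 in MO-2 samples, against 8.84, 8.71, 8.303 and 7.72 in control samples, a difference of 0.35 (SE 0.18). In both genes pair 4 was reversed and low in each group. The scavenger receptor gene mrc1a, of veins and lymphatics, was at 0.45 (SE 0.26) and at 0.07 without pair 3, the lymphatic VEGF receptor gene flt4 at 0.23 (SE 0.15) and the blood and vessel transcription factor gene tal1 at the median with 0.28 (SE 0.19). The receptor gene tie1 differed by 0.12 or less in each pair, with a 95% interval from -0.28 to 0.28. The list members tek and dusp5 were at 0.05 (SE 0.19) and -0.21 (SE 0.15), higher in 2 of 4 pairs and 1 of 4.

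**Figure D5:**
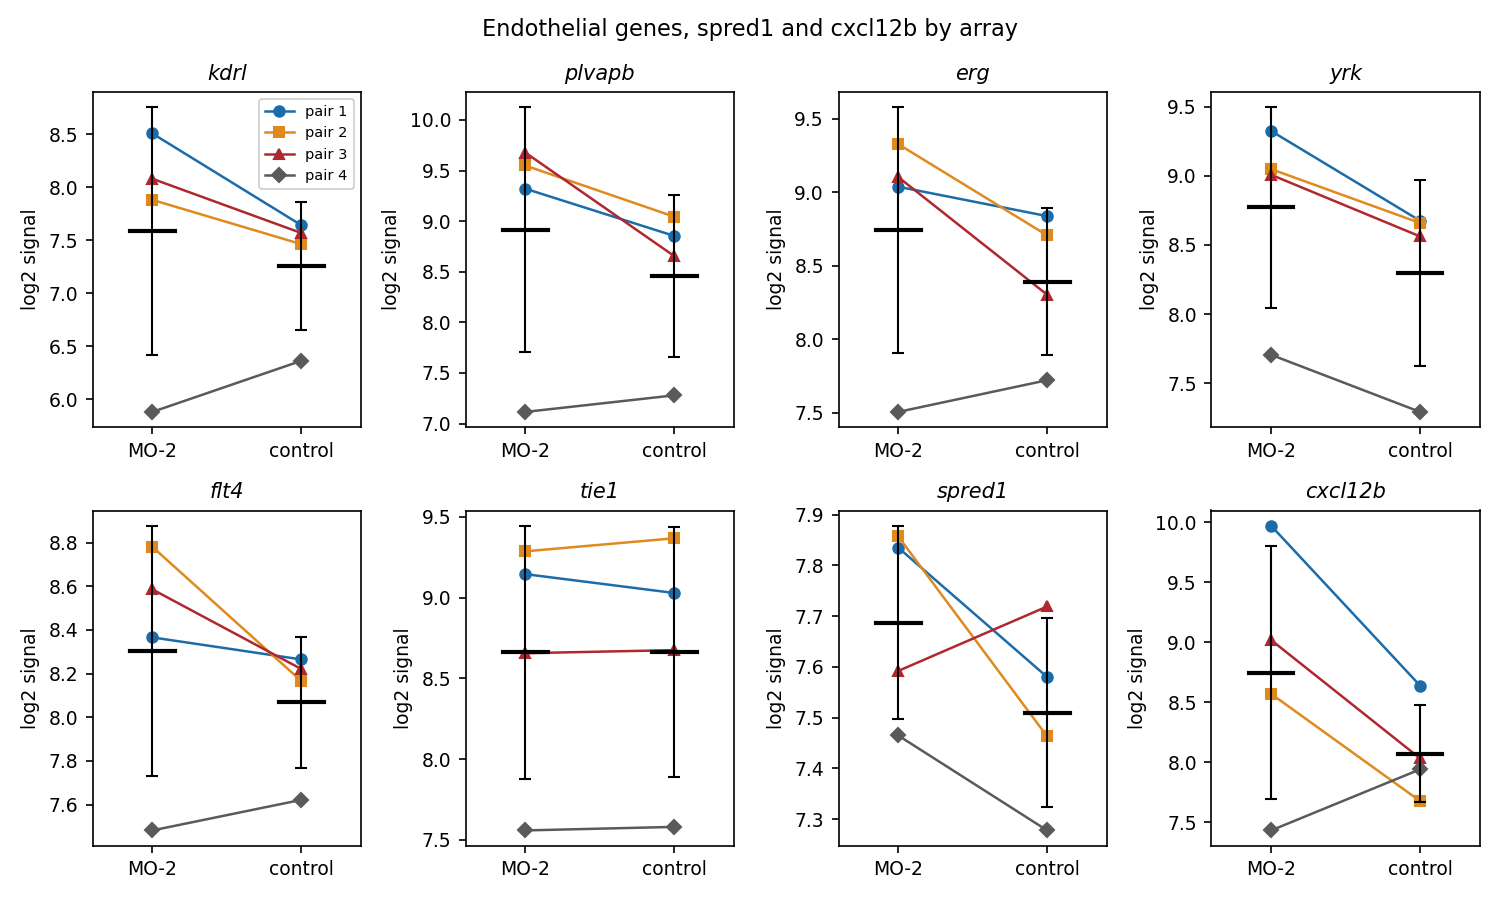
Log2 signal of 6 endothelial genes, spred1 and the chemokine gene cxcl12b in MO-2 samples (left) and control samples (right), with lines joining arrays of the same number and bars at the group mean ± SD (n = 4 each). The arrays numbered 4 are lowest in kdrl, plvapb, erg, yrk, flt4 and tie1 in both groups.

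For spred1, the described target of miR-126 in zebrafish, the probe set with the highest signal had 7.84, 7.86, 7.59 and 7.47 in MO-2 samples, against 7.58, 7.46, 7.72 and 7.28 in control samples. It was higher in 3 of 4 pairs, with overlapping groups and a difference of 0.18 (SE 0.14, 95% interval -0.13 to 0.49, adjusted p = 0.872). Its other 3 probe sets had differences of -0.15 (SE 0.14), -0.08 (SE 0.15) and -0.04 (SE 0.13). Of 13 measured genes that published work, mostly on human and mouse cells, names as targets of miR-126, 11 had a higher mean and 3 were higher in 4 of 4 pairs (23.1%), with a median of 0.10. Mean differences were 0.25, 0.25, 0.26 and -0.01 in pairs 1 to 4. Without pair 1 the median was 0.14 and without pair 2 it was 0.09. Without pair 3 the median was 0.17, and without pair 4 it was 0.20 with 10 of 13 higher.

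The chemokine gene cxcl12b had the largest difference among these genes, with 9.97, 8.57, 9.02 and 7.43 in MO-2 samples, against 8.64, 7.67, 8.03 and 7.94 in control samples. Pairs 1 to 3 were higher and pair 4 was lower, and the difference was 0.68 (SE 0.26, adjusted p = 0.651). The gene igfbp2a, for a binding protein of insulin-like growth factors, had 5.68, 6.02, 5.70 and 6.12 in MO-2 samples, against 5.07, 5.49, 5.19 and 5.84 in control samples. It was higher in 4 of 4 pairs at 0.48 (SE 0.13, adjusted p = 0.444). The genes hoxa9b and hoxa9a, which are also in the Hox list, were at 0.42 and 0.36 (SE 0.15 each) and higher in 4 of 4 pairs. The endosomal sorting gene tom1, at the median, was at 0.10 (SE 0.17).

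The list of VEGF and ERK signalling with its feedback inhibitors had 16 of 23 below control and a median of -0.08. Of these, 2 were lower in 4 of 4 pairs (8.70%, against 7.1% of all genes). The immediate early gene egr1, a transcription factor induced by ERK, had 9.35, 9.24, 9.38 and 9.27 in MO-2 samples, against 9.39, 9.79, 9.97 and 9.53 in control samples. Each MO-2 value lay below each control value, narrowly in pair 1, and the difference was -0.36 (SE 0.14, adjusted p = 0.657). The feedback inhibitor gene spry4 had 9.38, 9.23, 8.85 and 8.99 in MO-2 samples, against 9.37, 9.53, 9.55 and 9.39 in control samples, a difference of -0.35 (SE 0.15). Its gap was widest in pair 3 and absent in pair 1. The immediate early gene egr2a and the kinase gene mapk3, which encodes ERK1, were at -0.31 (SE 0.15) and -0.29 (SE 0.16). By pair the list differed by -0.05, -0.07, -0.31 and 0.07, and its median was -0.05 without pair 3 and -0.13 without pair 4.

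Genes that distinguish arteries from veins or belong to the Notch pathway did not lean to either side: 12 of 26 were higher and the median was -0.01. In 4 of 4 pairs, 4 were higher (15.4%, against 7.63% of all genes). Without pair 3, 19 of 26 were higher and the median was 0.08. The flow-induced transcription factor gene klf2a was at 0.33 (SE 0.13), the arterial transcription factor gene hey2 at 0.36 (SE 0.16) and the blood and endothelial transcription factor gene gata2a at 0.30 (SE 0.14), each higher in 4 of 4 pairs. The chemokine receptor gene cxcr4b was at -0.39 (SE 0.16) and lower in 3 of 4. Axon guidance genes, which also steer vessels, had 20 of 33 lower and a median of -0.07, or -0.03 without pair 1 or 2. The guidance receptor gene robo2 had 7.42, 6.86, 7.54 and 7.43 in MO-2 samples, against 7.998, 7.88, 7.82 and 7.64 in control samples. Its groups were separate at -0.52 (SE 0.16, adjusted p = 0.529). The repellent ligand gene sema3aa was at -0.40 (SE 0.13) with separate groups too, while plxnd1, the semaphorin receptor of zebrafish vessels, was at 0.32 (SE 0.13) and higher in 4 of 4 pairs.

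Markers of kidney tubule and ionocytes, motile cilia and myeloid cells had higher means, with different pairs carrying each. Of 15 measured genes of pronephros and ionocytes 13 were higher, 3 of them in 4 of 4 pairs (20%), with a median of 0.28 and mean differences of 0.78, 0.38, 0.10 and 0.00 in pairs 1 to 4. Without pair 1 this median was 0.15 and without pair 3 it was 0.47. The sodium chloride cotransporter gene slc12a3 had 8.32, 9.15, 7.04 and 8.68 in MO-2 samples, against 6.51, 7.73, 6.05 and 8.16 in control samples. It was higher in 4 of 4 pairs, with a gap that ran from 1.81 in pair 1 to 0.53 in pair 4, at 1.19 (SE 0.20, adjusted p = 0.252). The pronephric cadherin gene cdh17 was at 0.62 (SE 0.21) and the sodium pump genes atp1a1a.3 and atp1a1a.4 at 0.58 (SE 0.36) and 0.56 (SE 0.30), and without pair 1 atp1a1a.3 was at 0.03. The 2 genes with a lower mean were the transcription factor genes pax2a at -0.42 (SE 0.23) and pax8 at -0.19 (SE 0.18). Each was higher in only 1 of 4 pairs. The part of tubule cells and ionocytes in the sort was not tested.

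Of 27 genes of motile cilia 26 had a higher mean, 2 of them in 4 of 4 pairs (7.41%, against 7.63% of all genes). Their median was 0.20, with differences of 0.37, 0.42, 0.39 and -0.18 in pairs 1 to 4. Without pair 4 all 27 were higher with a median of 0.34, and 18 were higher in 3 of 3 pairs, where 20.3% of all genes were. Without pair 1, 2 or 3 the median was 0.17, 0.18 or 0.22. The radial spoke gene rsph1 had 7.87, 8.297, 7.74 and 7.36 in MO-2 samples, against 7.05, 7.13, 7.25 and 7.34 in control samples. Its groups were separate, by only 0.02 between the lowest MO-2 and the highest control value, and the difference was 0.63 (SE 0.18, adjusted p = 0.488). The gene capsla was at 0.66 (SE 0.19), cfap52, for a protein of the ciliary axoneme, at 0.51 (SE 0.26) and lrrc23, for a radial spoke protein, at 0.49 (SE 0.13). Outside the list, pierce1, whose mammalian product lies inside ciliary microtubules, had 7.29, 7.57, 7.42 and 5.59 in MO-2 samples, against 5.82, 6.07, 5.92 and 5.50 in control samples, a difference of 1.14 (SE 0.23, adjusted p = 0.274).

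Myeloid genes had 17 of 21 higher, 2 of them in 4 of 4 pairs (9.52%, against 7.63% of all genes), and a median of 0.19. The differences were 0.77 and 0.27 in pairs 1 and 2 and -0.12 in pairs 3 and 4. The neutrophil peroxidase gene mpx did not follow that pattern by pair, with 9.82, 10.94, 10.24 and 9.34 in MO-2 samples, against 8.80, 10.04, 9.27 and 8.96 in control samples. It was higher in 4 of 4 pairs at 0.82 (SE 0.15, adjusted p = 0.274), and its other 3 probe sets were at 1.03 (SE 0.15, adjusted p = 0.193), 0.47 (SE 0.25) and 0.12 (SE 0.15). The one at 0.47 was at -0.67 in pair 3, and the one at 0.12 was at -0.27 in pair 4. The carboxypeptidase gene cpa5, of mast cells, was at 0.61 (SE 0.20). The protease gene ctss2.1 was at 0.50 (SE 0.23), with 1.44 in pair 1 and -0.07 in pair 3. The scavenger receptor gene marco was at 0.43 (SE 0.34), though at -0.105 without pair 1. The 4 lower genes were cebpb at -0.29 (SE 0.18), cyba at -0.25 (SE 0.16), mmp13a at -0.08 (SE 0.21) and csf1ra at -0.05 (SE 0.13). The gene lyz was at 0.06 (SE 0.13). Erythroid genes were balanced, with 11 of 21 higher and a median of 0.00, and their mean difference was 0.53 in pair 1 and -0.47 in pair 4. Without pair 1 the myeloid median was -0.04 and the erythroid median -0.08. Without pair 3 the myeloid median was 0.31, and without pair 4 it was 0.30.

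Neural and epidermal markers had medians slightly below control. Of 62 neural genes 35 were lower and the median was -0.10, with differences of -0.43, -0.11, -0.04 and 0.24 in pairs 1 to 4. The neural median was 0.04 without pair 1. In 4 of 4 pairs, 8 neural genes were higher (12.9%, against 7.63% of all genes) and 4 were lower (6.45%, against 7.1%). The neural progenitor gene sox19a had 7.72, 7.24, 6.47 and 7.01 in MO-2 samples, against 8.26, 7.65, 7.48 and 7.46 in control samples. It was lower in 4 of 4 pairs at -0.61 (SE 0.15, adjusted p = 0.383). The neuronal transcription factor gene neurod6b and the radial glia gene fabp7a were at -0.70 (SE 0.37) and -0.60 (SE 0.22), lower in 3 of 4, while the neural plate gene zic2b was at 0.66 (SE 0.15) and higher in 4 of 4. Epidermal genes had 22 of 34 lower and a median of -0.09, or -0.19 without pair 1 and -0.04 without pair 2. Of the 34 genes, 12 had a higher mean, and 3 were lower in 4 of 4 pairs (8.82%, against 7.1% of all genes). The gene tp63, for the transcription factor of basal epidermis, was at -0.46 (SE 0.13) and lower in 4 of 4 pairs, and the claudin gene cldni was at -0.49 (SE 0.19). Against them, the keratin gene krt97 was at 0.44 (SE 0.28) and higher in 3 of 4 pairs. The keratin gene krt18b, at 0.21 (SE 0.13), was higher in 4 of 4.

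Genes of protein and RNA handling mostly had means slightly below control. Of 71 cytosolic ribosomal protein genes 62 had a lower mean, 16 of them in 4 of 4 pairs (22.5%), with a median of -0.07. Most of this lay in pair 4, where the mean difference was -0.18 against -0.04, -0.03 and 0.00 in pairs 1 to 3, and without pair 4 the median was -0.03 with 50 of 71 lower. The genes rps10 and rpl13 were at -0.21 and -0.20 (SE 0.13 each). Genes of splicing and RNA binding had 50 of 69 lower, 13 of them in 4 of 4 pairs (18.8%), and a median of -0.10. Their mean differences were -0.07, -0.03, -0.22 and -0.03 in pairs 1 to 4, and without pair 3 the median was -0.04.

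The RNA-binding protein gene hnrnpdl had 9.89, 9.58, 10.02 and 10.26 in MO-2 samples, against 10.47, 10.40, 10.74 and 10.50 in control samples. The gene syncripl had 9.38, 9.29, 9.16 and 9.39 in MO-2 samples, against 9.83, 9.89, 9.81 and 9.79 in control samples. In both genes each MO-2 value lay below each control value, at -0.59 (SE 0.14, adjusted p = 0.388) and -0.53 (SE 0.13, adjusted p = 0.389). The related gene hnrnpd was at -0.38 (SE 0.14), and the core snRNP gene snrpd1 was at 0.37 (SE 0.15), against the direction of the list.

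Proteasome genes had 39 of 50 lower, 12 of them in 4 of 4 pairs (24%), and a median of -0.10. In the regulatory cap 19 of 22 were lower with a median of -0.14, and in the catalytic core 13 of 20 with a median of -0.08. The differences by pair were 0.07, 0.00, -0.23 and -0.28, and without pair 4 the median was -0.05. The core gene psmb1 had 12.01, 11.88, 11.44 and 10.75 in MO-2 samples, against 12.13, 12.04, 11.93 and 11.41 in control samples, a difference of -0.36 (SE 0.14) with wider gaps in pairs 3 and 4. The activator gene psme1 was at -0.63 (SE 0.19) and the cap ATPase gene psmc5 at -0.35 (SE 0.14). Chaperone genes had 31 of 45 lower and a median of -0.09, which was 0.01 with 23 of 45 higher without pair 3 and -0.15 without pair 1, while the small heat shock protein gene hspb1 was at 0.67 (SE 0.17) and higher in 4 of 4 pairs. Histone and chromatin genes had 48 of 69 lower, 12 of them in 4 of 4 pairs (17.4%), and a median of -0.08. The chromatin remodeller genes smarcad1a and chd4a were at -0.54 (SE 0.18) and -0.38 (SE 0.13), and the histone demethylase gene kdm4c was at 0.52 (SE 0.16).

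Genes of the p53 response, which morpholino injection can induce through effects other than those on the target, were balanced over all 4 pairs. Over these 4 pairs, 15 of 28 measured genes were higher and 13 lower, 0 were higher in 4 of 4, and the median was 0.00. The ribosomal protein paralogue gene rps27l, a p53 target in mammals, was at 0.50 (SE 0.26) and higher in 2 of 4 pairs, and the stress gene sesn3 was at 0.43 (SE 0.21). The transcription factor gene foxo3b was at -0.38 (SE 0.12) and lower in 4 of 4. Interferon and innate immunity genes had 9 of 16 higher and a median of 0.02. The mean differences of the p53 list were 0.18, 0.07, -0.23 and 0.08 in pairs 1 to 4. Without pair 3 its median was 0.07, with 16 of 28 genes higher (57.1%, against 52.3% of all genes). Of the 28, 7 were then higher in 3 of 3 pairs and 2 lower, where 15.3% and 13.6% of all genes were. Without pair 4 the p53 median was -0.02. The interferon median was -0.02 without pair 3. Cell cycle genes had 45 of 75 lower and a median of -0.05, but 43 of 75 higher and a median of 0.03 without pair 4.

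Several genes outside the groups above were among those with the smallest p. The gene si:ch211-250g4.3 had 8.24, 8.12, 7.89 and 8.48 in MO-2 samples, against 9.27, 9.52, 9.39 and 9.21 in control samples. Its groups were separate by 0.73, and its difference of -1.17 (SE 0.16, adjusted p = 0.179) was among the 3 with the smallest p. The genes chmp4c, for a subunit of the ESCRT-III membrane scission complex, acss1, for a mitochondrial acetyl-CoA synthetase, and anxa5b, for an annexin, were at -0.74 (SE 0.13), -0.72 (SE 0.15) and -0.69 (SE 0.14). The gene ftr86, of the finTRIM family of fish, was at -0.81 (SE 0.17), and twsg1a, for a protein that binds bone morphogenetic proteins outside the cell, was at -0.55 (SE 0.13). Among the higher genes, the G protein signalling regulator rgs4 was at 1.03 (SE 0.20), the corneal proteoglycan gene kera at 0.90 (SE 0.17), the adaptor gene sorbs2b at 0.76 (SE 0.14) and the replication fork gene tipin at 0.70 (SE 0.13). All of these had 1 sign in 4 of 4 pairs.

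With 3 pairs in place of 4, single genes passed, and which ones depended on the pair left out. Without pair 4, limma called 6 probe sets higher in MO-2 samples (0.0387% of those tested) and 8 lower (0.0516%). The higher ones included lmx1a, for a LIM homeodomain transcription factor, which had 7.32, 7.13, 7.65 and 5.58 in MO-2 samples, against 5.80, 5.12, 5.71 and 5.65 in control samples. Its 3 gaps of pairs 1 to 3 were absent in pair 4, at -0.07, and the difference without pair 4 was 1.82 (adjusted p = 0.0109). The opioid peptide precursor gene penkb was called at 1.75 (adjusted p = 0.0109), pierce1 at 1.49 (adjusted p = 0.0144), slc12a3 at 1.41 (adjusted p = 0.0469) and si:ch73-359m17.9 by both of its probe sets at 1.84 and 1.35. The lower ones were si:ch211-250g4.3 at -1.31, the tubulin genes tubb4bl and tuba2 at -1.22 and -1.23, the claudin gene cldng at -1.29, the nuclear receptor gene esrrga at -1.26 and 3 probe sets without a single symbol. In pair 4 tubb4bl and tuba2 were higher in the MO-2 array, by 0.64 and 0.62. Without pair 1, limma called 2 probe sets (0.0129%), both lower in MO-2 samples: ins at -1.59 (adjusted p = 0.0465) and tfa at -1.51 (adjusted p = 0.0259). With all 4 pairs and a variance trend with robust moderation, 1 probe set was called lower (0.00645%), that of ins (adjusted p = 0.0085). These fits were not corrected for the choice among the 4 pairs left out.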

How the data were processed

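RNA of GFP-positive cells from 4 MO-2 samples and 4 control samples was measured on one-colour arrays. The authors deposited log2 signals made with RMA, per the submitters' processing notes, with its version not given in the sources used. RMA corrects background and sets all arrays to a common distribution, so a shift shared by most genes would not show; array medians were 6.80 to 6.85 and the number of arrays limits the precision. Of 15617 probe sets, 115 array controls were left out. Of the 15502 tested, 10795 have 1 gene symbol, 135 have several and 4572 have none in the platform annotation; 10679 symbols were matched through Entrez numbers and 1 was updated, giving 8793 genes, each taken from the probe set brightest on average. Cross-hybridization between related genes was not tested.

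limma 3.58.1 in R 4.3.3 fitted MO-2 minus control with the replicate number as a block over the 8 arrays (4 pairs), with Benjamini-Hochberg adjustment over all probe sets and a threshold of 0.05, and was checked on simulated data. The labels do not say what the replicate number stands for. Pairing by number was set by plan, and its only basis in the data is that same-numbered arrays deviated together (correlations 0.223 to 0.576). limma moderates the variance of each probe set with information from all probe sets. The fit thus had 9.42 degrees of freedom, against 3 residual ones per probe set. Where samples share no stated animal, SEs and p-values of the paired fit rest on the spread of the 4 same-numbered differences between these samples, moderated in this way. They do not measure the spread of the 4 differences of that probe set alone. The groups, the 38 gene lists and the tests were chosen with earlier results of these data known. Genes are named by rule: spred1, kdrl and egfl7; up to 15 with the smallest p in each direction; up to 10 with the largest difference in each direction among those with 1 sign in 4 of 4 pairs and a mean log2 signal of at least 6; and up to 4 members of each list with the largest difference, plus its median member. Those named after their values were seen are insb, sst6.1, pdx1, isl1a, neurod1, fgg, apoeb, apoa2, eno1a, gpib, tpi1b, gapdhs, hk2, tpi1a, pgam1a, pdk2b, flt4, tie1, tek, dusp5, hoxb2a, hoxb3a, hoxd3a, pax2a, pax8, cebpb, cyba, mmp13a, csf1ra, lyz, krt18b and the genes called without pair 4. Subsets of lists (islet hormones, fibrinogen chains, respiratory complexes, Hox groups, proteasome parts, glycolysis without members of the muscle list) were also made after the values were seen. Alternatives were no block, a random block, each pair left out, a filter at a mean log2 signal of 6, quantile normalization again, centring on array medians, a variance trend with robust moderation and the mean over a gene's probe sets.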

Additional observations from a re-analysis of the deposited data

Results flagged for a closer look

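Among 360 groups of 4 values, 19 held 1 array far from the other 3, where chance gives about 1 in 20 groups. The count is thus close to the chance rate, and the arrays below are listed as description only. Arrays numbered 4 account for most of the vessel genes. In MO-2 replicate 4 the endothelial score was -0.92 (0.40 to 0.58 in the other MO-2 samples), with erg at 7.51, plvapb at 7.12 and hey2 at 7.03. In control replicate 4 kdrl was at 6.36, yrk at 7.29 and flt4 at 7.62. The same arrays stood apart in the proteasome score (-0.30 in MO-2 replicate 4, -0.01 to 0.05 in the others), pierce1 (5.59 in MO-2 replicate 4), hoxd3a (5.76 in control replicate 4) and esrrga (7.09 in control replicate 4).

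Of the islet genes, ins was at 10.04 in MO-2 replicate 2, against 8.83 to 8.97 in the other MO-2 samples, and sst1.1 at 6.89 in control replicate 3, against 6.15 to 6.22 in the other controls. In MO-2 replicate 2, neurod6b was at 5.44 and suclg1 at 10.76. In MO-2 replicate 1, pdhb was at 8.70 and sema3aa at 8.88. The lens and eye score was 0.18 in MO-2 replicate 3 (0.00 to 0.01 in the others), and the notochord and cartilage score was -0.88 in control replicate 1 (0.16 to 0.37 in the others). Their causes were not tested.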

How the results depend on the processing

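Without the replicate block, which leaves the pairing out, 0 probe sets were called in either direction and 433 had an unadjusted p under 0.05, against 1075 with it; with a random block the counts were 0 and 870. Leaving out 1 pair at a time gave 0 to 6 calls higher in MO-2 samples and 0 to 8 lower, with 2 lower without replicate 1. A variance trend with robust moderation called 1 lower probe set, that of ins (adjusted p = 0.0085). The filter at a mean log2 signal of 6, quantile normalization again and centring on array medians called 0, with 798, 1076 and 1069 at an unadjusted p under 0.05.

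Over probe sets of higher signal only, the median was -0.56 for the endocrine pancreas list and 0.22 for the exocrine list, where fewer genes were left. Leaving out 1 pair gave interferon medians of -0.024 to 0.099 and cytoskeleton medians of -0.018 to 0.017; the cytoskeleton median was 0.04 after quantile normalization again and -0.018 as a mean over probe sets. Directions turned for 6 named genes when 1 pair was left out: insb (-0.26 to 0.11), hoxb2a (-0.208 to 0.012), marco (-0.105 to 0.79), tom1 (-0.096 to 0.25), pdx1 (-0.195 to 0.12) and tie1 (-0.041 to 0.025), and tie1 was at 0.026 after quantile normalization again. The causes were not tested. With 4 pairs, the median half-width of the 95% interval was about 0.33, so smaller differences lay within the error of a probe set of median precision. These intervals are not adjusted for the number of probe sets tested.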

Other observations

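Matrix, growth factor and pigment genes held further differences, none past the test. Of 31 extracellular matrix genes 19 were higher in MO-2 samples with a median of 0.03. In 4 of 4 pairs, 4 were higher (12.9%, against 7.63% of all genes). The matrix protein gene tgfbi had log2 signals of 9.29, 9.42, 9.47 and 9.12 in MO-2 samples, against 8.56, 8.90, 9.07 and 8.38 in control samples. Its groups did not overlap, and the difference was 0.60 (SE 0.13, adjusted p = 0.341). The collagen lysyl hydroxylase gene plod1a and the small proteoglycan gene dcn were at 0.56 (SE 0.16) and 0.53 (SE 0.13). The melanin synthesis gene dct was at 0.72 (SE 0.17) and higher in 4 of 4 pairs.

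Of 57 genes of BMP, TGF-beta and Wnt signalling 36 were higher and the median was 0.06. The ligand gene tgfb1a had 7.58, 7.58, 7.42 and 7.46 in MO-2 samples, against 8.13, 8.05, 8.13 and 7.84 in control samples. Each MO-2 value lay below each control value, at -0.53 (SE 0.13, adjusted p = 0.389). The TGF-beta signal transducer gene smad2 and the beta-catenin gene ctnnb1 were at -0.42 and -0.37 (SE 0.13 and 0.14). On the other side, fzd7a was at 0.38 (SE 0.15) and higher in 4 of 4 pairs. Cytoskeletal genes were balanced, with 22 of 43 higher. The small GTPase gene rhoab and the non-muscle myosin gene myh9a were both at -0.52 (SE 0.13 each), with groups that did not overlap. The genes tmsb1 and vim were at -0.49 (SE 0.16) and 0.39 (SE 0.15), lower and higher in 4 of 4 pairs. Of the remaining lists, 11 of 11 lens and eye genes were higher (median 0.09), 13 of 15 of exocrine pancreas (0.06), 8 of 10 of neural crest and pigment (0.14), 17 of 24 of mesenchyme (0.12), 12 of 18 of notochord and cartilage (0.05) and 90 of 137 solute carriers (0.07). Without pair 3, 3 of 11 lens and eye genes, 8 of 15 exocrine genes and 5 of 10 neural crest and pigment genes were higher. The extracellular matrix median was -0.02 without pair 1 and 0.10 to 0.12 without each of the others. Without pair 1 the notochord and cartilage median was -0.08.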
